A study of Mus musculus with 6 samples.

Results

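Glycine tRNAs carry glycine to the ribosome, and their anticodon names the codons that they read. The nuclear glycine tRNAs were followed in 2 forms, mature and precursor, in mouse hearts with and without the endonuclease Elac2. Members were the rows of the deposited comparison whose gene type was mature or precursor tRNA and whose name began with Gly. This gave 47 of 30638 rows, namely 15 mature tRNAs and 32 precursors, out of 268 mature and 471 precursor nuclear tRNA rows. The rule used names and gene types alone, but the members were chosen with earlier results of these data known. By anticodon the mature and precursor rows numbered 6 and 15 for GCC, 5 and 7 for CCC, 2 and 8 for TCC, and 2 and 2 for ACC. In a row name the number after the anticodon marks a distinct mature sequence and a last number, found on precursors only, marks a gene copy that encodes it.

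A nuclear tRNA gene is transcribed by RNA polymerase III into a precursor with a 5′ leader and a 3′ trailer. RNase P removes the leader, and Elac2, a long form of RNase Z, cuts off the trailer in the nucleus and also acts in mitochondria. The CCA end to which the amino acid is joined is then added, and a tRNA that lacks a processed 3′ end cannot be charged. Glycine tRNAs read the GGN codons. In many mammalian tissues GCC and CCC glycine tRNAs are also a rich source of tRNA-derived fragments.

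The groups were 3 control mice, titled L/L and given the genotype Elac2 +/+ in the labels, and 3 knockout mice, titled L/L, cre and labelled Elac2 -/-. By their titles all 6 mice, of strain C57BL/6, carried floxed alleles, in which an exon of Elac2 lies between loxP sites. Only the knockout mice carried cre, driven by the muscle creatine kinase promoter, so heart cells that are not muscle may still have had Elac2. Age and sex are not given in the labels, and Elac2 mRNA, the check of the deletion, was not analysed here because the table held no nuclear protein-coding features. RNA from whole hearts was selected for inserts of 15 to 100 nt, so a counted read may come from a whole tRNA or from a fragment, and these were not told apart.

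Counts per library totalled 13510061 to 16248673 in control and 14505705 to 15271036 in knockout. Rows with any count numbered 4664 to 6018 in control and only 2995 to 3160 in knockout, a difference whose cause was not tested. Of all rows 1144 passed the filter on low counts. With edgeR's quasi-likelihood test at a Benjamini-Hochberg adjusted p under 0.05, 265 of these were higher in knockout and 309 were lower, a background of 23.2% and 27% (50.2% either way), and the groups did not overlap for 63% of rows. Levels are read counts divided by library size in units of 1000000 (CPM), with library sizes scaled by TMM, which sets the bulk of rows equal between libraries. Other scalings moved the median of all rows by -0.84 to 0.54 on the log2 scale and changed the split to 101 higher and 659 lower (snoRNA and scaRNA scaling), 406 and 224 (snRNA and rRNA), 170 and 432 (total counts) or 190 and 357 (miRNA). Cardiomyocyte microRNAs were present in every library, with a summed level of 117837 to 148037 CPM in control and 72669 to 93284 CPM in knockout. Of the 7, Mir1a-1 and Mir1a-2, which made up most of that sum, were lower, Mir208b was higher and 4 were not called. The Mir1a-1 and Mir1a-2 calls were lost under snRNA and rRNA scaling, without the filter and without any one knockout replicate. The Mir208b call was lost under total-count, miRNA, and snoRNA and scaRNA scaling and without control replicate 2 or 3. Fibroblast microRNAs summed to 637 to 878 CPM in control and 1233 to 1310 CPM in knockout, with 2 of the 3 in the table (Mir199a-2 and Mir214) at 0. The other, Mir199a-1, was higher (log2 fold change 0.79, edgeR adjusted p = 0.00183) except under snoRNA and scaRNA scaling. Red cell microRNAs summed to 504 to 1189 and 877 to 1425 CPM, with Mir144 higher (log2 fold change 0.85, edgeR adjusted p = 0.0353) and Mir451a not called. Leukocyte ones summed to 125 to 156 and 159 to 193 CPM, with Mir223 and Mir155 at 0 throughout. Mir150 was lower (log2 fold change -0.59, edgeR adjusted p = 0.0368) and Mir142 was not called (0.51, edgeR adjusted p = 0.0751). The results for Mir144, Mir150 and Mir142 changed with other scalings. Endothelial Mir126a and smooth muscle Mir143 and Mir145a were not called in the main fit but were lower under total-count scaling. The part of these cells in the results that follow was not tested.

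The reference annotation of RefSeq (GRCm38.p6) lists 28 nuclear glycine tRNA genes on 9 chromosomes, 14 with the anticodon GCC, 7 with TCC, 6 with CCC and 1 with ACC. Each is 71 to 74 bases long, so levels of different glycine tRNAs can be compared with almost no length effect. A cluster of 9 of them, 5 TCC and 4 GCC, lies at chr1:171037997-171102827. Gene symbols in this annotation could not be paired with row names such as Gly-CCC-5, so no position is given for a single member. Genes that encode one mature sequence, sequences that differ by few bases, and the mature and precursor forms of one tRNA can share reads. The sources used here do not say how such reads were assigned. The split between near-identical members and between forms is therefore uncertain, and sums per anticodon are given beside single members.

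Mature glycine tRNA fell in knockout hearts for the GCC and CCC anticodons, which held nearly all glycine reads, and the members did not all move the same way. Of 15 mature members 13 passed the filter, and 10 of them fell, 1 rose and 2 were not called. The background for a fall is 27% of all rows. The median log2 fold change of the 13 was -1.67, from -4.52 to 4.02, against -0.38 for the 111 other mature tRNAs tested and -0.01 for all rows. Among those other mature tRNAs 38 fell and 14 rose. In whole hearts, fewer cells of a type and less RNA per cell cannot be told apart.

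The member with the most reads was mature Gly-CCC-5, a tRNA for the GGG codon. It measured 15695, 15652 and 20048 CPM in control replicates 1 to 3, against 1552, 1396 and 3859 CPM in the knockouts, always in replicate order. All knockout libraries lay below all controls, and knockout replicate 3 stood above the other knockouts. The mean fell from 17132 ± 2526 to 2269 ± 1379 CPM (SD, n = 3 each), a log2 fold change of -2.92 ± 0.34 (SE; edgeR adjusted p = 3.37e-05), or 7.55-fold. Leaving out each library in turn gave -3.34 to -2.41.

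A second CCC sequence, mature Gly-CCC-2, went the other way. It measured 17.4, 20.9 and 24.7 CPM in the controls and 463, 350 and 211 CPM in the knockouts. Every knockout library was above every control, and knockout replicate 3, the highest for Gly-CCC-5, was the lowest here. The mean rose from 21.0 ± 3.67 to 341 ± 126 CPM (SD, n = 3 each), 16.3-fold, with a log2 fold change of 4.02 ± 0.30 (SE; edgeR adjusted p = 1.6e-06). It was the only mature glycine member called higher in the fit of single rows with the filter, TMM scaling and all 6 libraries. Its share of all mature glycine counts was 0.0931%, 0.105% and 0.10% in the controls, and 16.9%, 15.2% and 4.59% in the knockouts in the same order (exact two-sided permutation p = 0.1, the smallest that 3 against 3 can give). The ratio of Gly-CCC-2 to Gly-CCC-5 counts, a pair chosen after the values were seen, rose by 7.03 on the log2 scale, 131-fold (same exact test, p = 0.1). A ratio within a library does not depend on the scaling.

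The other CCC sequences were far less abundant than Gly-CCC-5. Gly-CCC-1 measured 56.7, 84.7 and 79.0 CPM in control and 28.0, 27.6 and 25.7 CPM in knockout, and fell 2.71-fold (log2 fold change -1.44 ± 0.21, SE; edgeR adjusted p = 0.000152). Gly-CCC-3 measured 31.9, 39.0 and 44.9 CPM in control and 7.56, 7.12 and 7.83 CPM in knockout, and fell 5.14-fold (log2 fold change -2.36 ± 0.22; edgeR adjusted p = 6.19e-06). The knockouts of both lay close together and below all controls. Gly-CCC-4 stayed near the filter at 1.78 ± 0.258 and 1.19 ± 0.639 CPM (SD, n = 3 each), its groups overlapped, and it was not called (log2 fold change -0.57; edgeR adjusted p = 0.24) except under snoRNA and scaRNA scaling (-1.42).

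All 6 mature GCC sequences, which read the GGC and GGU codons, fell. The most abundant, Gly-GCC-3, measured 1963, 2723 and 3076 CPM in control and 541, 408 and 364 CPM in knockout. Its groups were far apart, with a 5.92-fold fall (log2 fold change -2.56 ± 0.22, SE; edgeR adjusted p = 3.87e-06). Gly-GCC-5 was next at 693, 1151 and 1126 CPM in control, against 45.0, 40.1 and 44.6 CPM in knockout. This was the lowest fold change of any glycine member, -4.52 ± 0.24 on the log2 scale (edgeR adjusted p = 2.55e-07), and its knockouts differed little among themselves. Its share of mature glycine counts went from 4.69% ± 1.04 to 1.45% ± 0.421 (SD, n = 3 each; exact permutation p = 0.1), while that of Gly-GCC-3 was 12.2% and 15.1% (exact permutation p = 0.5).

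The other GCC sequences were present at 10 to 80 CPM in control. Gly-GCC-1 measured 70.7, 80.5 and 76.2 CPM in control and 38.5, 27.5 and 32.3 CPM in knockout, 2.31-fold lower (log2 fold change -1.21; edgeR adjusted p = 0.000328). It had the smallest fall of the 6. Gly-GCC-6 went from 41.2, 53.3 and 56.3 CPM to 5.30, 4.35 and 10.5 CPM, 7.48-fold lower (edgeR adjusted p = 2.26e-05). Gly-GCC-4 went from 15.5, 16.6 and 22.0 CPM to 2.03, 0.712 and 4.44 CPM (7.48-fold lower; edgeR adjusted p = 0.000265), and its log2 fold change of -2.90 was -2.22 without knockout replicate 2 and -3.49 without knockout replicate 3. Gly-GCC-2 went from 9.82, 14.8 and 15.1 CPM to 5.45, 3.16 and 3.84 CPM (3.19-fold lower; edgeR adjusted p = 0.000356). For none of the 6 GCC sequences did the groups overlap, as was so for 63% of all rows.

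Mature TCC and ACC tRNAs, which were present at low levels, moved little. Gly-TCC-1, which reads GGA, measured 31.7, 41.2 and 37.5 CPM in control and 29.5, 24.4 and 22.2 CPM in knockout. All knockouts lay below all controls, with a log2 fold change of -0.54 ± 0.21 (SE) just inside the threshold (edgeR adjusted p = 0.0492). The call did not hold with control replicate 2 or 3 or any knockout replicate left out (log2 fold changes -0.55 to -0.24), nor under snRNA and rRNA scaling (0.00). Gly-ACC-1 measured 7.87, 10.3 and 12.1 CPM in control and 16.2, 12.7 and 13.7 CPM in knockout, so that every knockout was above every control. It was not called as a single row (log2 fold change 0.49 ± 0.23; edgeR adjusted p = 0.0938). Without knockout replicate 2 (0.82) or 3 (0.73), without the filter (0.87) and under snRNA and rRNA scaling (1.07) it was called higher. The same counts were also called higher in the fit where precursor counts were added up over gene copies (0.60; edgeR adjusted p = 0.0417). Gly-TCC-2 had 1 to 3 counts per library and Gly-ACC-2 had 0 in every library, and neither was tested.

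**Figure D1:**
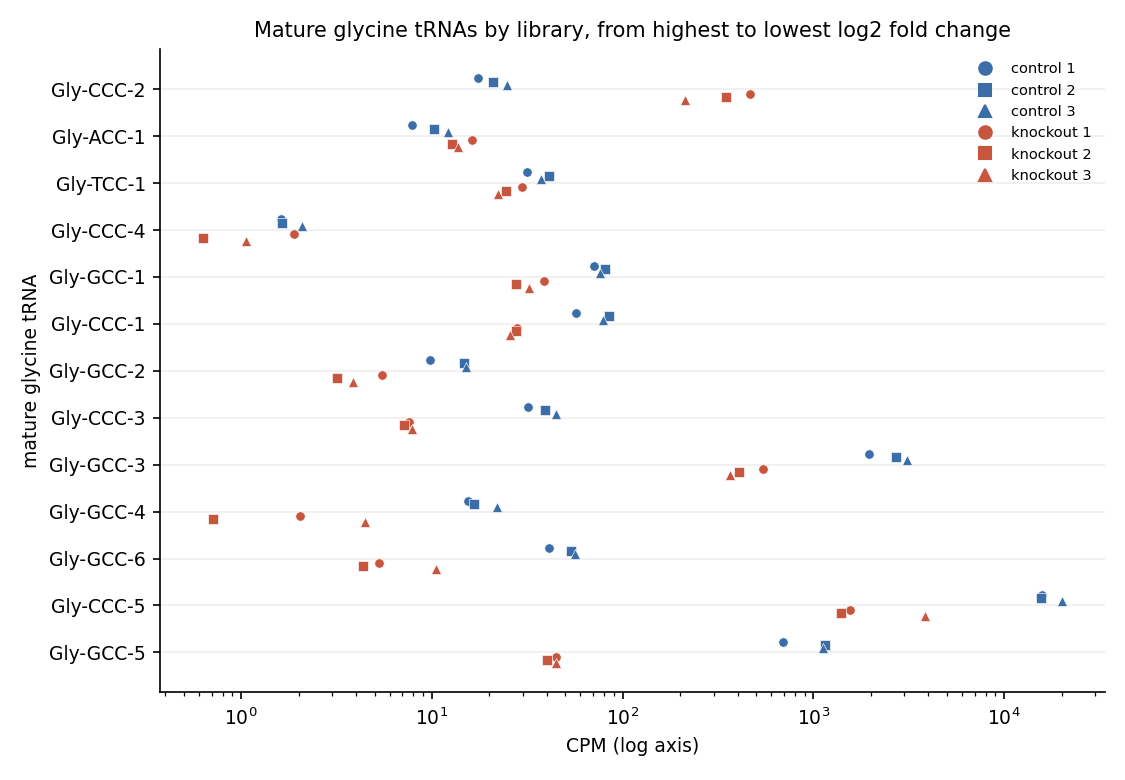
Level of each tested mature glycine tRNA in CPM (log axis) in each library, with control and knockout by colour and replicates 1 to 3 by symbol. Gly-CCC-2 is the row with knockouts far above controls (211 to 463 against 17.4 to 24.7 CPM), and Gly-GCC-5 and Gly-CCC-5 show wide gaps the other way.

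Sums over all rows of an anticodon do not depend on how reads were split within it. They can still depend on reads shared between anticodons or between forms, and how such reads were assigned is not known. They were fitted in a table of their own, with its own scaling, so their CPM cannot be added to those of single rows. Of 998 rows tested there, 52.6% were called, 26.9% higher and 25.8% lower, and the groups of 63.9% did not overlap. The mature CCC sum measured 16194, 14244 and 19660 CPM in control and 2110, 1787 and 4427 CPM in knockout, and fell 6.02-fold (log2 fold change -2.59 ± 0.29, SE; edgeR adjusted p = 6.87e-06). Gly-CCC-5 alone set this direction: with it taken out after the values were seen, the rest of the CCC rows summed to a log2 fold change of 1.59 (edgeR adjusted p = 0.0001), since Gly-CCC-2 then led the sum.

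The mature GCC sum measured 2862, 3642 and 4255 CPM in control and 655, 485 and 495 CPM in knockout. It fell 6.58-fold, with a log2 fold change of -2.72 ± 0.20 (SE; edgeR adjusted p = 1.94e-07), and the fall was -3.56 without Gly-GCC-3. The mature TCC sum was 35.5 ± 2.52 CPM in control and 26.4 ± 3.51 CPM in knockout (SD, n = 3 each; log2 fold change -0.42; edgeR adjusted p = 0.0871). The mature ACC sum was 9.70 ± 1.92 and 14.7 ± 1.94 CPM (log2 fold change 0.60; edgeR adjusted p = 0.0408), and came from the same reads as the single ACC row that was not called. The ACC call was lost without any one control replicate (0.45 to 0.60) and with the scaling by total counts (0.16), DESeq2 size factors (0.45) or miRNAs (0.30), and its sign turned with snoRNA and scaRNA scaling (-0.36). The mature GCC and CCC sums were called lower under every scaling tried.

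Within libraries the counts of the 4 anticodons were also set against each other, in 12 ratios over both forms. In mature reads the log2 ratio of GCC to CCC differed by -0.02 between the groups (exact two-sided permutation p = 1). It differed by 0.44 without knockout replicate 3, the library with the highest CCC level among the knockouts, and by 0.11 without control replicate 2. The log2 ratio of GCC to TCC fell by 2.28 and that of CCC to TCC fell by 2.27, and in each the groups did not overlap (exact permutation p = 0.1, adjusted over the 12 ratios 0.15). The ratio of GCC to ACC fell by 3.33 and that of CCC to ACC fell by 3.31 (same test, adjusted p = 0.15). No ratio can pass the threshold in this design.

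**Figure D2:**
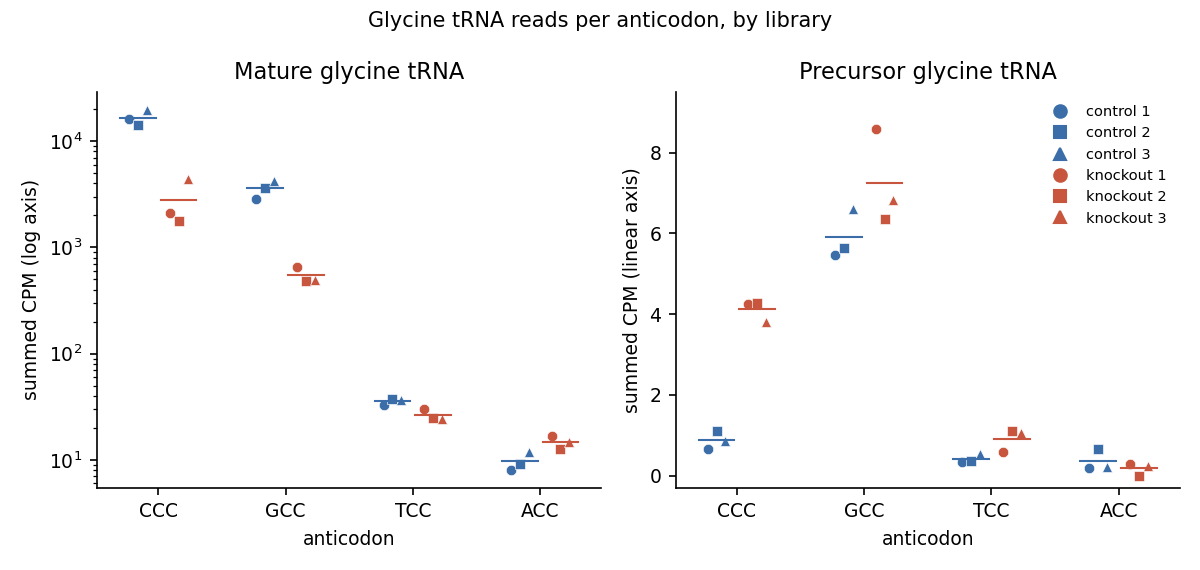
Summed CPM per glycine anticodon in each library, mature on a log axis at left and precursor on a linear axis at right, with bars at the group means. Mature CCC and GCC sums are lower in every knockout, precursor CCC is higher (3.82 to 4.28 against 0.666 to 1.12 CPM), and precursor GCC overlaps between groups.

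Glycine precursors had few reads, and those with the clearest excess in knockout encode Gly-CCC-2 and, summed over copies, Gly-GCC-1. The highest single count of any precursor row in any library was 29, the median total over 6 libraries was 26.5, and 9 of the 32 rows had a total of 10 or less, with Gly-GCC-6-1 and Gly-ACC-2-1 at 0 throughout. Only 3 of the 32 passed the filter. The 2 of them that were called higher, both copies of Gly-CCC-2, passed only through their knockout counts, so that they had to differ and that call is no support. For these rows the test is therefore given from the fit with no filter, over all 9254 rows with counts, of which 4.68% were called higher. Against the main fit it moved the median of the rows in both by 0.36 on the log2 scale. Its adjusted p-values for these rows were far smaller than those of DESeq2, which are given beside them. A total of 0 over a group is set against a floor of 3 counts, and intervals here cover counting error only.

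Precursor Gly-CCC-2-1, a gene copy for the sequence that rose in mature form, had 0, 0 and 2 counts in control and 29, 22 and 15 counts in knockout. The rate in knockout was 42.8 times that in control, with a 95% counting interval of 11.4 to 360 (unfiltered edgeR adjusted p = 6.54e-13, DESeq2 adjusted p = 7.07e-05). The unfiltered log2 fold change was 5.49. Both control counts came from control replicate 3, and without it the log2 fold change of the filtered fit went from 5.15 to 7.59, against a control group at 0. Its sister copy Gly-CCC-2-2 had 0 counts in all controls and 11, 16 and 14 counts in knockout. This was 17.7-fold higher against a floor of 3 counts over the control group, with the counting error of the knockouts left out (unfiltered edgeR adjusted p = 2.71e-10, DESeq2 adjusted p = 3.3e-05). The third tested row, Gly-GCC-2-8, had 20, 13 and 19 counts in control and 16, 17 and 18 in knockout, so that the groups overlapped (log2 fold change 0.34 ± 0.33; edgeR adjusted p = 0.428).

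Precursor counts were also added up over the gene copies of each mature sequence, a step added after the data were seen. Of 1100 rows tested this way 52.5% were called, 26.8% higher and 25.6% lower, and 3 of 15 glycine precursor groups passed the filter, those of Gly-CCC-2 and Gly-GCC-1 again only through knockout. With no filter 4.37% of 9101 rows were called higher. The 2 copies of Gly-CCC-2 summed to 0, 0 and 2 counts in control and 40, 38 and 29 in knockout, a ratio of 69.3 with a 95% counting interval of 18.7 to 580 (unfiltered edgeR adjusted p = 5.19e-20, DESeq2 adjusted p = 8.12e-07). The unfiltered log2 fold change of this sum was 6.22, and that of the filtered fit went from 5.94 to 8.29 without control replicate 3. The 3 copies of Gly-GCC-1 summed to 1, 9 and 7 counts in control and 35, 22 and 15 in knockout. Every knockout lay above every control, and the unfiltered log2 fold change was 2.84 (edgeR adjusted p = 5.18e-07; DESeq2 adjusted p = 0.00198). The mature form of this sequence fell least among the GCC tRNAs. Of its copies, Gly-GCC-1-3 had 0, 1 and 1 counts in control and 11, 7 and 6 in knockout. Without the filter on low counts edgeR called all 3 copies higher. In the authors' deposited DESeq2 comparison only Gly-GCC-1-3 passed (adjusted p = 0.0167). There Gly-GCC-1-1 had an adjusted p of 0.0893 and Gly-GCC-1-2 of 0.119.

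The 8 copies of Gly-GCC-2, the glycine sequence with the most precursor reads, gave 63, 65 and 83 counts in control and 57, 47 and 53 in knockout. After scaling the log2 fold change was 0.05 ± 0.24 (SE; edgeR adjusted p = 0.879). Its sign turned with 4 other scalings, and under snoRNA and scaRNA scaling it was called lower (-0.90; edgeR adjusted p = 0.00538). The sequence with the most mature reads had almost no precursor reads: Gly-CCC-5 had 1, 3 and 1 precursor counts in control and 2, 3 and 1 in knockout.

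The remaining precursor groups did not pass the filter, and their raw counts are given without a test. Gly-GCC-3, the leading mature GCC tRNA, had 4, 23 and 20 precursor counts in control and 7, 5 and 5 in knockout. Gly-GCC-5 had 10, 7 and 4 counts in control and 1, 1 and 2 in knockout, so that its precursor, like its mature form, was low in every knockout. The 7 copies of Gly-TCC-1 gave 5, 7 and 10 counts in control and 7, 14 and 13 in knockout, which overlap. Gly-CCC-3 had 4, 5 and 5 counts in control and 5, 6 and 7 in knockout, which tie at 5 and separate once scaled (0.252 to 0.268 against 0.374 to 0.563 CPM). The groups overlapped for Gly-CCC-1 (3, 14 and 8 against 9, 7 and 10), Gly-GCC-4 (4, 7 and 10 against 15, 5 and 9) and Gly-ACC-1 (3, 13 and 4 against 4, 0 and 3).

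**Figure D3:**
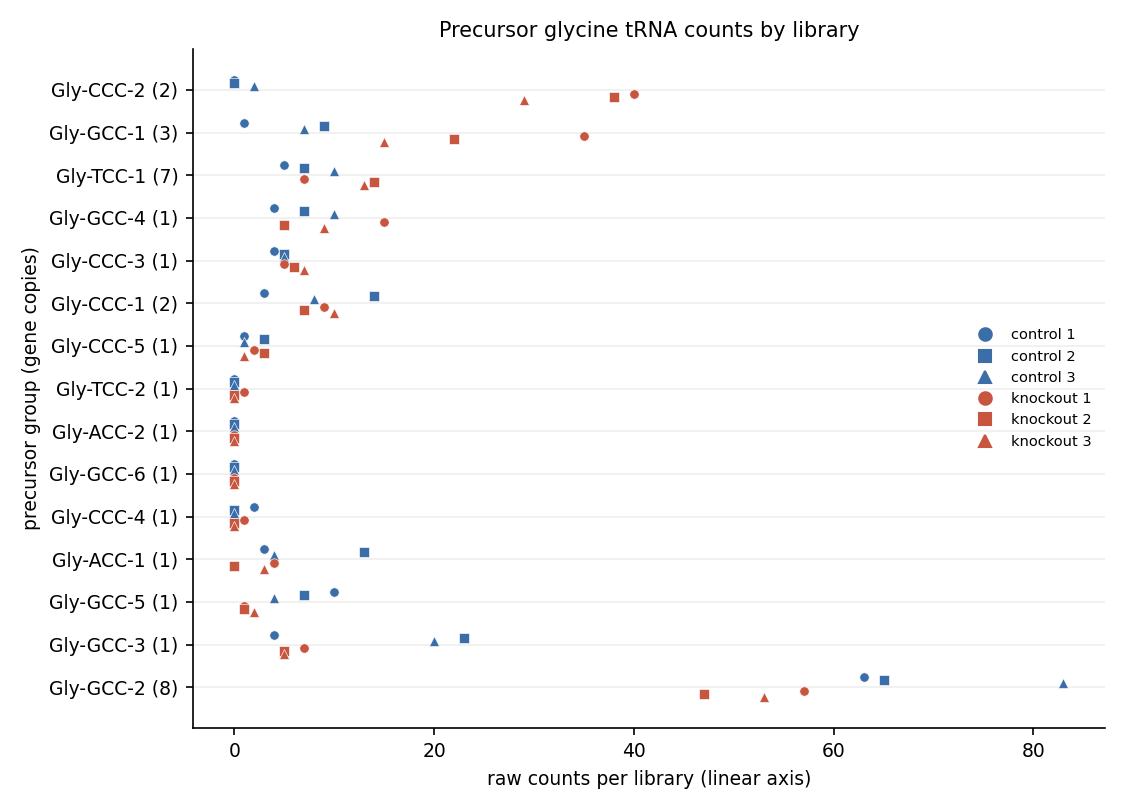
Raw precursor counts per library (linear axis) for each glycine sequence, summed over its gene copies, whose number stands in brackets. Gly-CCC-2 and Gly-GCC-1 have every knockout library above every control, while Gly-GCC-2, with the highest counts, has knockouts at 47 to 57 against 63 to 83 in control.

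Summed per anticodon, CCC precursors rose and GCC precursors were not called. The precursor CCC sum measured 0.666, 1.12 and 0.851 CPM in control and 4.26, 4.28 and 3.82 CPM in knockout (10, 22 and 16 against 57, 54 and 47 raw counts). It rose 4.61-fold, with a log2 fold change of 2.2 ± 0.31 (SE; edgeR adjusted p = 5e-05), and the groups were far apart. Without the Gly-CCC-2 copies, taken out after the values were seen, the log2 fold change was 0.64 and was not called (edgeR adjusted p = 0.147). These copies made up 0%, 0% and 12.5% of precursor CCC counts in control and 70.2%, 70.4% and 61.7% in knockout.

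The precursor GCC sum measured 5.46, 5.64 and 6.59 CPM in control and 8.59, 6.35 and 6.82 CPM in knockout, with overlap (log2 fold change 0.30 ± 0.23, SE; edgeR adjusted p = 0.295). Other scalings gave -0.66 to 0.74 and called it both lower and higher, so no direction is given. Precursor TCC, at 0.407 ± 0.109 and 0.921 ± 0.282 CPM, and precursor ACC, at 0.358 ± 0.262 and 0.181 ± 0.159 CPM (SD, n = 3 each), were below the filter. Within libraries the log2 ratio of GCC to CCC precursors fell by 1.93 (exact permutation p = 0.1, adjusted over the 12 ratios 0.15). GCC made up 78.4% ± 5.08 of glycine precursor counts in control and 57.9% ± 4.27 in knockout, and CCC made up 11.6% ± 2.42 and 33.1% ± 2.94 (SD, n = 3 each).

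Precursor reads per mature read compare both forms within each library, so library size and scaling cancel out. The ratio still depends on how reads that match both forms were assigned, which is not known. For GCC there were 19.1, 15.5 and 15.5 precursor reads per 10000 mature reads in control and 131, 131 and 138 in knockout. For CCC there were 0.411, 0.784 and 0.433 in control and 20.2, 24.0 and 8.62 in knockout. Every knockout exceeded every control for both, and knockout replicate 3 was the lowest knockout for CCC. With limma on the log2 ratio over 44 anticodons, 63.6% of anticodons rose and 11.4% fell, so a rise was the common case. The ratio of Gly-CCC rose by 4.92 ± 0.44 on the log2 scale (SE; limma adjusted p = 3.4e-05), 30.3-fold, second of the 44 after Asp-GTC at 6.34. That of Gly-GCC rose by 3.0 ± 0.19 (limma adjusted p = 5.92e-06), 8.03-fold and eighth of the 44. The median over all 44 was 1.23.

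For GCC this ratio rose with precursor counts that overlapped between the groups and mature counts that were lower. For CCC both parts of the ratio moved, but in different sequences. Gly-CCC-5 led the mature fall and had 1, 3 and 1 precursor counts in control and 2, 3 and 1 in knockout. Gly-CCC-2 led the precursor rise, and its mature form rose too. The ranked CCC ratio thus joins different sequences, and no ratio of a single sequence was ranked. TCC had 102, 95.5 and 145 precursor reads per 10000 mature reads in control and 196, 452 and 436 in knockout, which did not overlap (exact permutation p = 0.1). ACC, on 0 to 13 precursor reads a library, had 248, 714 and 180 in control and 179, 0 and 165 in knockout, with every knockout below every control (exact permutation p = 0.1). For Gly-CCC-2 alone the values were 0, 0 and 44.2 in control, and the lowest knockout was at 62.8. Over all glycine tRNAs precursors stayed rare against mature reads, at 3.49, 4.33 and 3.42 per 10000 in control and 48.9, 50.9 and 24.1 in knockout.

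**Figure D4:**
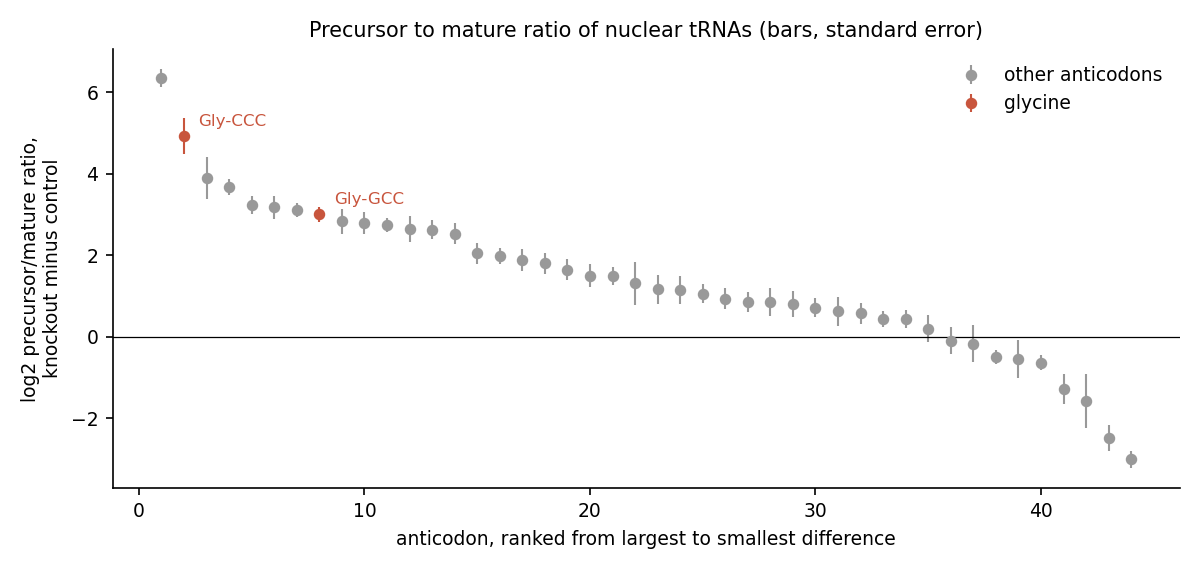
Change in the log2 ratio of precursor to mature reads (knockout minus control, with SE) for each of 44 anticodons, ranked from the largest rise. Gly-CCC (4.92) is second and Gly-GCC (3.0) is eighth.

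Glycine made up most of the mature nuclear tRNA reads in these hearts. Its share was 71.5%, 70.9% and 70.7% in control and 57.8%, 54.4% and 73.4% in knockout, so that knockout replicate 3 lay above the controls and the groups overlapped (exact permutation p = 0.4). The mean difference was -9.17 percentage points, and -14.9 without knockout replicate 3. As a share of all counts, mature glycine tRNA was 2.12%, 2.17% and 2.82% in control and 0.260%, 0.191% and 0.409% in knockout, with a wide gap (exact permutation p = 0.1). Of precursor tRNA reads glycine held 2.41% ± 0.188 in control and 2.13% ± 0.102 in knockout (SD, n = 3 each; exact permutation p = 0.1).

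Summed over all anticodons, mature glycine tRNA measured 18940, 19621 and 24394 CPM in control and 2752, 2279 and 4648 CPM in knockout. Of 949 rows tested with these sums 51.4% were called, 23.2% higher and 28.2% lower. The glycine sum fell 6.50-fold (log2 fold change -2.70 ± 0.24, SE; edgeR adjusted p = 2.99e-06), second lowest of 21 isotypes (amino acids, with initiator methionine counted apart) after Glu at -3.73. Of the 21 mature sums 13 fell and 1, Ala at 2.34, rose, and their median was -0.72. The precursor glycine sum measured 6.61, 8.50 and 8.34 CPM in control and 13.4, 11.6 and 11.2 CPM in knockout (log2 fold change 0.63 ± 0.22; edgeR adjusted p = 0.0304), 14th of 22 isotypes, of which 8 rose and 2 fell. That call did not hold without control replicate 3 (0.64; edgeR adjusted p = 0.0797) or with scaling by total counts (0.28; 0.337) or miRNAs (0.43; 0.181), and the sign turned with snoRNA and scaRNA scaling (-0.23).

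Glutamate and aspartate tRNAs, whose mature rows fell in every case tested (5 of 5 and 2 of 2, against 27% of all rows), were set beside glycine. Mature Glu went from 6075 ± 1277 to 457 ± 108 CPM (SD, n = 3 each; log2 fold change -3.73; edgeR adjusted p = 2.46e-07) and mature Asp from 111 ± 25.3 to 24.7 ± 5.74 CPM (-2.16; edgeR adjusted p = 1.9e-05). Their precursors differed from each other: Glu precursors were at 14.6 ± 2.2 and 11.4 ± 1.74 CPM (-0.36; edgeR adjusted p = 0.195), while Asp precursors rose from 7.27 ± 1.80 to 132 ± 26.5 CPM (4.18; edgeR adjusted p = 2.49e-07). Glycine lay between them. The glutamate share of mature tRNA reads was 20.4% ± 1.24 in control and 9.48% ± 3.57 in knockout, and aspartate took 2.26% ± 0.579 and 23.2% ± 3.34 of precursor reads (exact permutation p = 0.1 each).

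**Figure D5:**
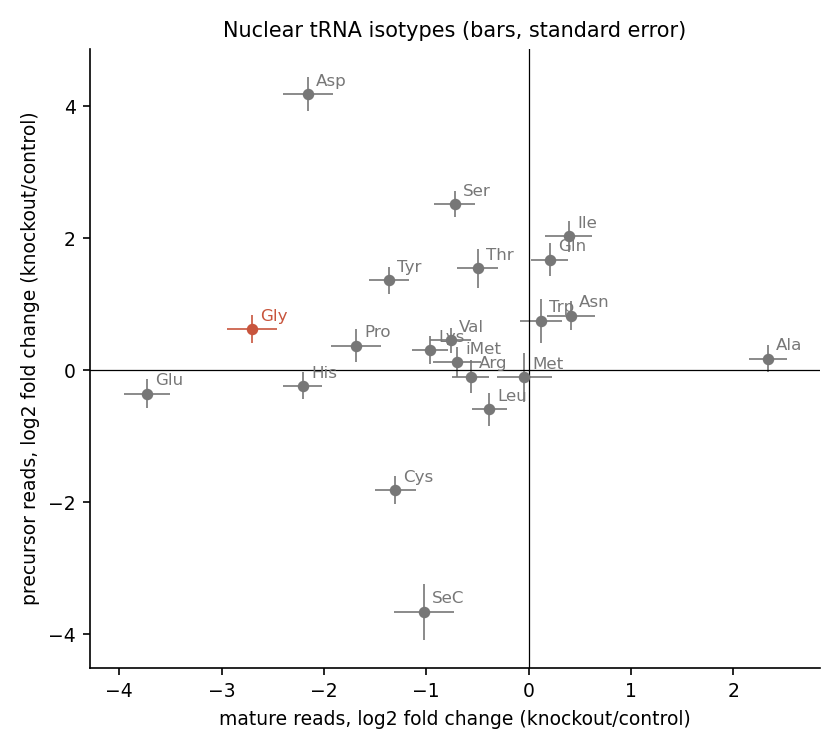
Log2 fold change (knockout over control) of mature reads on the horizontal axis and precursor reads on the vertical axis, with 1 point for each isotype and bars for the SE. Gly lies far left at -2.70 with a precursor value of 0.63, between Glu (-3.73 and -0.36) and Asp (-2.16 and 4.18).

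Other RNAs made by RNA polymerase III, among them those of RNase P, which cuts the 5′ side, and of the related RNase MRP, were compared as a fixed list. Of 8 listed 8 were tested, 6 fell and 0 rose, where 27% of all rows were lower. The list was chosen with earlier results of these data known, so its count against that background is no test. Rpph1, the RNA part of RNase P, measured 51.0 ± 8.81 CPM in control and 56.0 ± 1.76 CPM in knockout (SD, n = 3 each; log2 fold change 0.14; edgeR adjusted p = 0.577), and was called lower only under snoRNA and scaRNA scaling. Rmrp, the RNA part of the related RNase MRP, was at 393 ± 63.9 and 529 ± 62.1 CPM (0.43; edgeR adjusted p = 0.0691) and was called higher under snRNA and rRNA scaling and without control replicate 1 or knockout replicate 2 or 3. The Y RNA Rny1 fell from 1659 ± 326 to 377 ± 27.5 CPM (-2.14; edgeR adjusted p = 4.11e-06) and Rny3 from 783 ± 256 to 64.7 ± 19.7 CPM (-3.60; edgeR adjusted p = 4.33e-06).

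Rn7sk, which binds and holds back a transcription elongation factor, fell from 1522 ± 496 to 54.7 ± 17.5 CPM (-4.80; edgeR adjusted p = 8.28e-07). The vault RNA Vaultrc5 fell by 1.51 on the log2 scale (edgeR adjusted p = 0.00155). Rn7s1 and Rn7s2, the RNA of the signal recognition particle, fell by 1.18 and 1.07 (edgeR adjusted p = 0.000646 and 0.00219), the latter not under snRNA and rRNA scaling. These last RNAs and Rn7sk are longer than the selected inserts, so their reads are pieces. Reads of the other listed RNAs, Rpph1, Rmrp and Vaultrc5 among them, may be pieces too. Their values are therefore not levels of intact RNA.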

How the data were processed

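Small RNA from hearts of 3 control and 3 knockout mice was analysed, with 1 library per mouse in the table. The members and lists were chosen with earlier results of these data known. Each mouse had 4 technical replicates, per the design text, whose merging no source used here describes. The authors deposited raw counts per feature as whole numbers, which entered every test. Normalized counts (a signal, not used here) were deposited too, beside the authors' own comparison, which holds base means (a signal), log2 fold changes and their errors, a Wald score, p-values and adjusted p-values, per the file headers. In the authors' deposited table, of 14 mature glycine tRNAs with an adjusted p 1 was higher and 9 were lower, and of 24 precursors 3 were higher and 0 lower. The submitters' processing notes name build mm10 and the tools featureCounts 1.5.1, Bowtie2 2.2.9, DESeq2 1.16.1 and cutadapt 1.14. No source used here gives the tRNA annotation, the strand setting or the rule for multi-mapping reads.

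Features were filtered with filterByExpr (minimum count 10, minimum total 15), scaled by TMM and tested with edgeR 4.0.16 (glmQLFTest, R 4.3.3) over the whole table, with Benjamini-Hochberg adjustment and no covariate. Precursors that passed the filter only through knockout counts are given from the fit with no filter, a choice made after their counts were seen. Tested features held at least 99.89% of counts. Sums per mature sequence, anticodon or amino acid replaced the single tRNA rows in tables of their own. Ratios (0.5 added to each count) were tested with limma 3.58.1 over anticodons that had both forms. Single ratios and shares had exact two-sided permutation tests, whose smallest p is 0.1. Intervals of count ratios are 95% exact binomial. Libraries of a group differed beyond sampling noise (lowest chi-square per degree of freedom 79.1). The test was checked on simulated counts. Named were all anticodon sums, all tested mature members and all called precursors, the Glu and Asp sums and the 8 listed RNAs; other precursors are named beside their counts after these were seen. Other scalings, no filter, DESeq2 1.42.0, a replicate block and leaving out each library were tried. There were 0 columns of other samples.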

Additional observations from a re-analysis of the deposited data

How the results depend on the processing

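Scaling is the main limit: TMM assumes that most features did not change. Precursor counts are low, each group has 3 mice, and reads shared by near-identical tRNAs or by both forms cannot be resolved here. With total counts alone 170 features were higher, with snoRNA and scaRNA scaling 101 higher and 659 lower, and with snRNA and rRNA scaling 406 higher. Without the filter 433 were higher and 708 lower, and DESeq2's test called 565 lower. Leaving out a library gave 225 to 349 higher and 261 to 559 lower. Of mature glycine members 2 were higher with snRNA and rRNA scaling and without the filter, and 1 to 2 on leaving out a library, the second being Gly-ACC-1. Of precursors 5 were higher without the filter and 3 with DESeq2's test. On leaving out a library 0 to 1 were lower. This was Gly-GCC-3-1 without control replicate 1, which then passed the filter only through the controls. In its other fits the edgeR adjusted p was 0.256 to 0.554. The precursor GCC sum was -0.14 (total counts), -0.66 (snoRNA and scaRNA, edgeR adjusted p = 0.0273) and 0.74 (snRNA and rRNA, 0.0295), and the precursor CCC sum was 0.64 without Gly-CCC-2. The mature ACC sum was 0.16 (total counts), 0.45 (DESeq2 size factors), 0.30 (miRNA), -0.36 (snoRNA and scaRNA), 0.52 (DESeq2's test) and 0.45 to 0.88 on leaving out a library. The mature TCC sum was -0.87, -0.58, -0.71 and -1.38 with the same scalings in that order and was then called lower, as with DESeq2's test (-0.51), and was 0.0054 with snRNA and rRNA scaling. The mature CCC sum was 1.59 without Gly-CCC-5. The all-glycine precursor sum was 0.28 (total counts), 0.43 (miRNA), -0.23 (snoRNA and scaRNA), not called in these, and 0.63 to 0.97 on leaving out a library. The mature GCC to CCC ratio was -0.30 to 0.44 on leaving out a library. Precursor Gly-GCC-2-8 was -0.011 (total counts) and -0.51 (snoRNA and scaRNA), mature Gly-ACC-1 was -0.36 with the latter, and mature Gly-TCC-1 was 0.00027 with snRNA and rRNA scaling. The precursor Gly-GCC-2 sum was -0.39 (total counts), -0.086 (DESeq2 size factors), -0.23 (miRNA), -0.90 (snoRNA and scaRNA), -0.033 (DESeq2's test) and -0.15 to 0.28 on leaving out a library. Apart from what a change of scaling, filter, samples or summed rows does by construction, the cause was not tested. Whether replicate numbers pair the mice is not known. Deviations of same-numbered libraries correlated at -0.134, -0.016 and -0.192, which cannot decide this with 3 libraries in each group. With the replicate block 242 features were higher and 294 lower, and 3 glycine calls were lost: the mature ACC sum (0.61, edgeR adjusted p = 0.071), the all-glycine precursor sum (0.63, 0.0764) and mature Gly-TCC-1 (-0.54, 0.125).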
